A study of Mus musculus with 2 samples.

Results

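Mir140 is the microRNA gene best known from cartilage and from the growth of the palate, and it was followed here in the facial prominences of mouse embryos. It was chosen by name as 1 gene of the 1973 microRNA loci in the count tables and found through its identifier, ENSMUSG00000065439.1. There was 1 group, with no treatment or allele named in the labels: facial prominences of healthy B6NCrl embryos at 11.5 days, males and females pooled. Replicate 1 pooled tissue of 109 embryos and replicate 2 of 88 embryos, so each value is a pool average and not that of a single animal. The labels number the pools as separate biological replicates under the same donor entry, and the spread between them may be partly technical. Small-RNA libraries gave 1941745 sense counts at microRNA loci in replicate 1 and 2319881 in replicate 2. A single count therefore stood for 0.515 CPM (counts scaled to 1000000 per library) in replicate 1 and 0.431 in replicate 2.

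A microRNA gene is transcribed into a hairpin, from which the enzymes Drosha and Dicer cut a duplex of short strands. A strand loaded into an Argonaute protein pairs with messenger RNAs mainly through bases 2 to 8, the seed, and lowers their output. Mir140 lies within Wwp2, which encodes a ubiquitin ligase, and is induced with its host by the chondrogenic factor Sox9. Mice without Mir140 have short bones and a shortened skull, and in zebrafish Mirn140 restrains Pdgfra, a receptor that guides neural crest cells to the palate. The tables list microRNA loci alone, so the messenger RNAs of Sox9, Wwp2 and Pdgfra were not analysed here.

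The Mir140 gene occupies chr8:107551244-107551313 on the plus strand of GRCm38, within Wwp2 on the same strand (chr8:107436365-107558595). Its 70 bases fall in an intron of 3 of the 4 protein-coding Wwp2 transcripts, while Wwp2-211 ends upstream. In the transcript with the most exons, Wwp2-201, this is intron 16, which is 2141 bases long. The hairpin begins after 1108 bases of that intron and is followed by 963 bases before exon 17. A transcript annotated as a retained intron, Wwp2-206, holds the hairpin within its exon. Small RNA from either kind of precursor is counted at the same locus.

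The hairpin and its listed mature product, as given by RefSeq for GRCm38.p6, are shown because the counts below are of this hairpin; capitals mark miR-140-3p, the strand of the 3′ arm, in the hairpin.
Mir140 hairpin: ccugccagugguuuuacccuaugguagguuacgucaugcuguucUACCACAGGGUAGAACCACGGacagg
Capitals in the next sequences mark the seed, bases 2 to 8; miR-497b is the only other mature entry with the same seed.
miR-140-3p: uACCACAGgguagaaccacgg
miR-497b: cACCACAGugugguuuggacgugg

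The mature strand spans bases 45 to 65 of the hairpin. In the fold predicted by RNAfold it paired at 20 of its 21 bases with bases 5 to 26 of the opposite arm. The hairpin closed with 30 base pairs in all and a minimum free energy of -39.1 kcal per mol, or -0.559 per base. Among 304 detected loci with a listed hairpin, 26 had a lower energy per base, and the median was -0.435. The listed hairpin of Mir140 has 70 bases, against a median of 84 for these loci. The effect of listed length on energy per base was not tested. The fold is a property of the sequence and was not measured in these libraries.

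**Figure D1:**
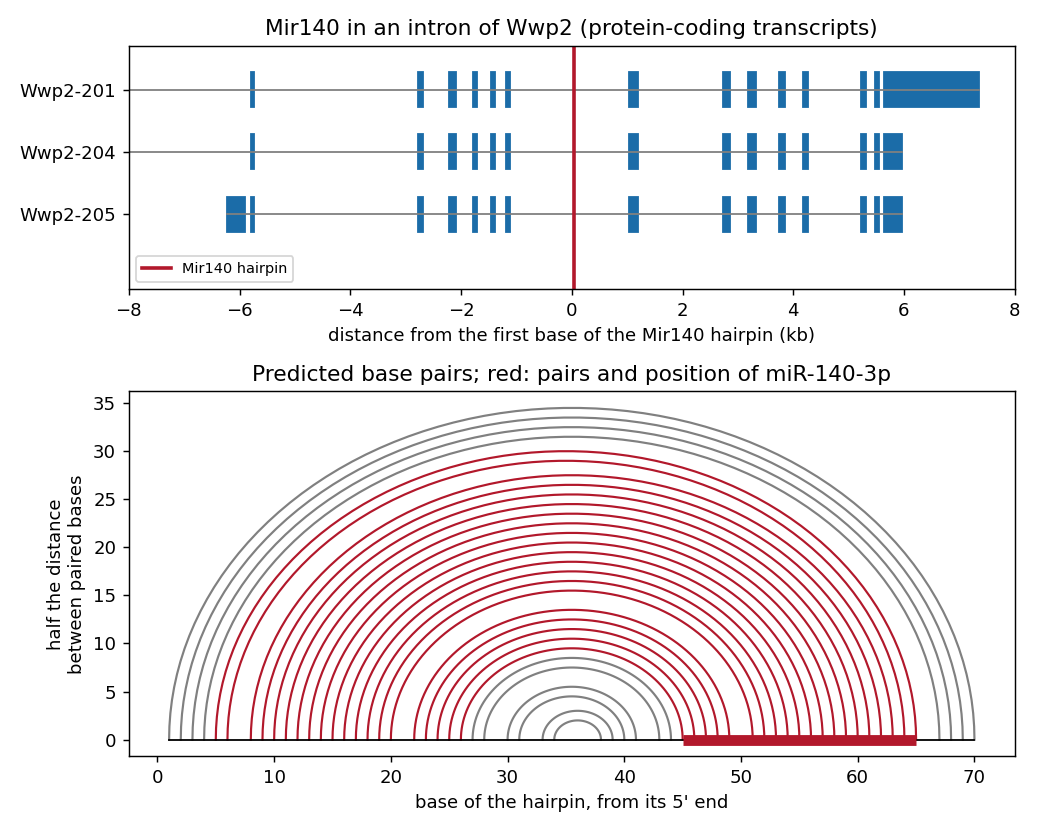
Top, exons (boxes) of the 3 protein-coding Wwp2 transcripts that span the hairpin, against distance from its first base in kb, with the hairpin as a red line. Bottom, predicted base pairs drawn as arcs over the 70 bases of the hairpin; red arcs and the red bar mark the 20 pairs and the position of miR-140-3p at bases 45 to 65.

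How abundant Mir140 is in the forming face was addressed first. Mir140 received 17305 sense counts in replicate 1 and 19167 in replicate 2. Scaled to the library total, these were 8912 CPM in replicate 1 (95% exact binomial interval 8780 to 9045) and 8262 CPM in replicate 2 (8146 to 8379). The mean was 8587 ± 460 CPM (SD, n = 2), an SD of 5.35% of the mean. The intervals cover counting error only, and they do not overlap, so the pools differed by more than counting error. Mir140 made up 0.891% of the sense counts in replicate 1 and 0.826% in replicate 2. Set against all sequenced reads, including those that were unmapped or placed at several positions, its share was 0.364% in replicate 1 and 0.283% in replicate 2. Less RNA per cell and fewer cells that make Mir140 cannot be told apart in pooled tissue.

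By mean level Mir140 ranked 28 of the 1973 loci, at 27 in replicate 1 and 32 in replicate 2. It was 1 of the 351 loci (17.8% of all) with at least 10 counts in both libraries, whose median was 192 CPM, and it stood 44.7-fold above that median. Together the 27 loci above it took 66.4% of the sense counts in replicate 1 and 66.1% in replicate 2. The most abundant locus, the Mest-hosted Mir335, exceeded it 10.2-fold in replicate 1 and 10.1-fold in replicate 2. The libraries were limited to under 30 bases, per the labels, the size of mature strands and not of whole hairpins, so counts were not divided by hairpin length. Levels of different loci also carry differences in ligation and placement, whose size was not tested.

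The counts of Mir140 came from the sense strand alone. The opposite strand had 0 counts in both libraries, which allows a share of up to 0.0213% in replicate 1 and 0.0192% in replicate 2 (exact 95% bound). That was the usual state, since 233 of 257 loci averaging at least 100 counts also had no opposite count. Nor does the hairpin share a long exact stretch with the other hairpins compared. Its longest run of bases shared with any of 1004 other hairpins, on either strand, was 11 bases, as in Mir3109. Copies with scattered mismatches, and loci without a listed hairpin, were not searched. Among 141767 annotated transcripts the 21 bases of miR-140-3p occurred in Mir140 itself and in the Wwp2-206 transcript that contains it, and in no other. The rest of the genome was not searched. The tables give 1 count per hairpin, so the 3′ strand, its shifted forms and miR-140-5p, the strand known from work on Pdgfra, are summed.

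**Figure D2:**
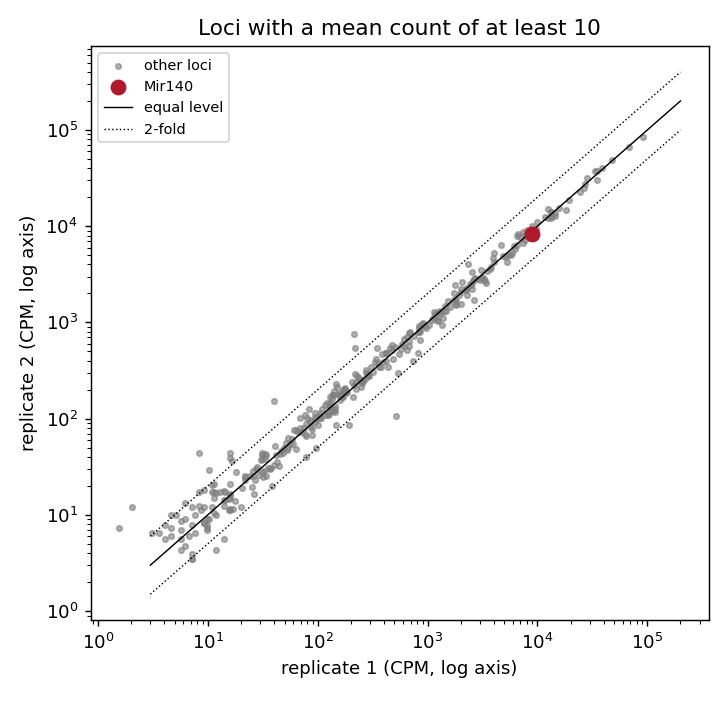
Level of each locus averaging at least 10 counts in replicate 1 (x axis) and replicate 2 (y axis), in CPM on log axes; the solid line marks equal levels and the dotted lines a 2-fold difference. Mir140, in red, had 8912 CPM in replicate 1 and 8262 in replicate 2 and lies between the dotted lines among the abundant loci.

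How well the level repeated was then compared between the pools. Mir140 was 1.08-fold higher in replicate 1, a log2 ratio of 0.11 (95% counting interval 0.08 to 0.14). Of 257 loci averaging at least 100 counts, 5 (1.95%) differed by over 2-fold (13 with a minimum of 20 counts and 3 with 500), and Mir140 was not among them. An absolute ratio smaller than that of Mir140 was seen for 106 of the other loci (41.4%), and the median absolute ratio was 0.14. In all, 127 of these 257 loci (49.4%) were higher in replicate 1. The common coefficient of variation between the pools in edgeR, fitted over 363 loci, was 16.7%, against 11.2% on its trend at the level of Mir140. The ratio of Mir140 was thus below the median absolute ratio of these loci. Both pools are of 1 group, so these ratios describe the repeat and no condition is tested.

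Marker microRNAs of the tissues in a facial prominence were set beside this ratio. Mesenchyme, largely from the neural crest, was represented by 12 measured loci and epithelium by 7, all with at least 10 counts in both libraries. The share of all loci with that many was 17.8%, and these lists too hold well-studied genes, so nothing about either tissue is read from the counts of detected members. The mesenchyme loci took 9.43% of counts in replicate 1 and 9.72% in replicate 2, and the epithelial loci 3.31% in replicate 1 and 2.95% in replicate 2. Reads of markers of both tissues were present in each library. All 7 epithelial loci were higher in replicate 1, with a median log2 ratio of 0.28 and a range of 0.04 to 0.40. Mir200a, Mir200b and Mir429 lie close together in Ttll10, and Mir200c and Mir141 in Gm15884. The 7 loci are therefore not separate observations. The 11 mesenchyme loci other than Mir140 had a median of -0.05, from -0.44 for Mir145a to 0.15 for Mir21a. The ratio of Mir140 lay within both ranges. Of all loci that averaged at least 10 counts, 48.8% were higher in replicate 1. This stands beside the 7 of 7 epithelial loci and 5 of the 12 mesenchyme loci, with Mir140 among the latter.

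Loci of striated muscle moved more between the pools, with a summed share of 0.0628% in replicate 1 and 0.149% in replicate 2. Of the 5 muscle loci with at least 10 counts in both libraries, 4 were lower in replicate 1 (48.8% of all loci that averaged at least 10 counts were higher there). Log2 ratios of these 4 ran from -0.62 for Mir206 to -1.93 for Mir208a of the heart, while Mir133b had 16.0 CPM in replicate 1 and 15.9 in replicate 2. Mir208b, in Myh7, had 412 counts in replicate 1 and 1759 in replicate 2 (log2 ratio -1.84). Mir208a, Mir208b and Mir499 lie in the myosin genes Myh6, Myh7 and Myh7b. Erythroid loci had a summed share of 0.0280% in replicate 1 and 0.0614% in replicate 2. That sum was mostly Mir451a, with 423 counts in replicate 1 and 1270 in replicate 2, whereas its neighbour Mir144 had 46.4 CPM in replicate 1 and 45.7 in replicate 2. Both sums were thus lower in replicate 1, where Mir140 was higher, but not every member was. Neural loci held 0.243% in replicate 1 and 0.195% in replicate 2. Leukocyte loci took 0.0564% in replicate 1 and 0.0672% in replicate 2, and Mir126a of endothelium 3.90% in replicate 1 and 4.04% in replicate 2. The liver locus Mir122 had 31 counts in replicate 1 and 102 in replicate 2. Mir133a-1 and Mir133a-2 of muscle and the neuronal Mir124a-3 were at 0 in both libraries, but copies of their sequences exist and their reads can be placed at several positions. The part of these cell types in the ratio of Mir140 was not tested.

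**Figure D3:**
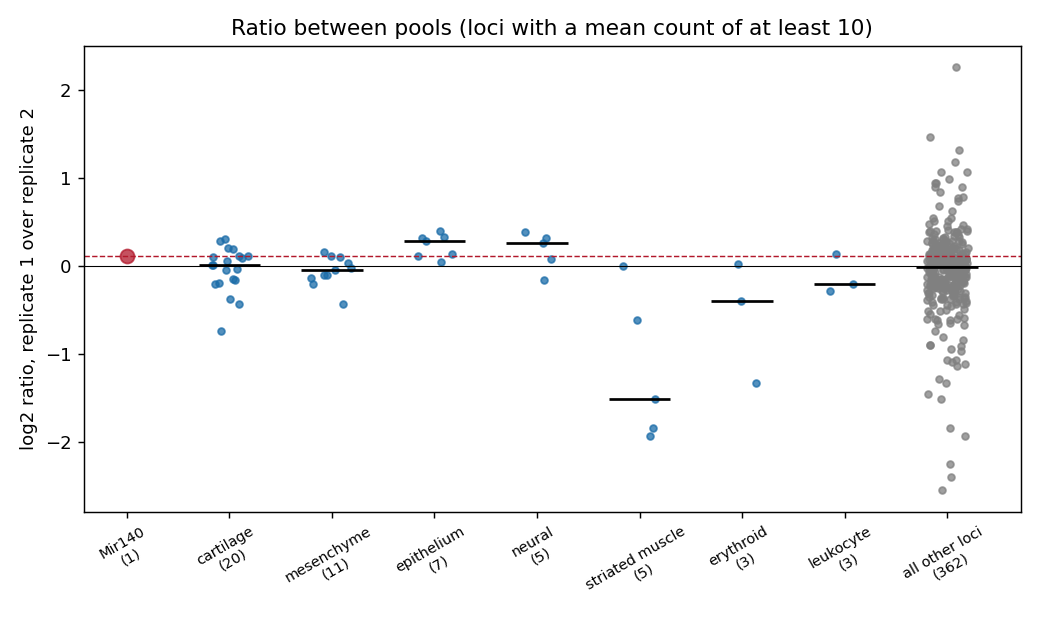
Log2 ratio of CPM, replicate 1 over replicate 2, for Mir140 (red, dashed line at 0.11), for loci of each marker list without Mir140 and for all other loci that averaged at least 10 counts; points are loci, black bars are medians and numbers in brackets count the loci. Mir140 lies near the bulk of all loci, between the medians of mesenchyme (-0.05) and epithelium (0.28).

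Among the mesenchyme markers Mir140 was the fourth most abundant in each library. It followed Mir214, hosted by Dnm3os, Mir23b, and Mir143, a locus of smooth muscle and mesenchyme. Mir214 had 28519 CPM in replicate 1 and 31478 in replicate 2, and Mir143 had 13169 CPM in replicate 1 and 14185 in replicate 2. Mir140 was lower than Mir143 by a log2 difference of -0.67 ± 0.15. It exceeded Mir199b, another locus of skeletal mesenchyme, by 6.31-fold in replicate 1 and 6.31-fold in replicate 2. Mir199b has relatives in Mir199a-1 and Mir199a-2, and reads placed at several positions are not counted. The levels of these loci may therefore be incomplete, and the fold over Mir199b too high. The share of Mir140 in the counts of the whole list was 9.45% in replicate 1 and 8.50% in replicate 2.

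The order of loci around Mir140 was then compared with the replicate spread. A locus was said to differ from Mir140 when, in each library and in the same direction, the log2 difference exceeded the ratio between pools of both loci. By this rule 241 of 256 other loci (94.1%) averaging at least 100 counts differed, and 15 did not. These 15 stood at ranks 24 to 46, with 3 above Mir140 and 12 below it. They are not all equal to Mir140 in level, since a locus that varies between the pools is hard to tell apart. Mir342, at rank 46, lay below Mir140 in both libraries, with 4649 CPM in replicate 1 and 6338 in replicate 2, but its own log2 ratio was -0.45. Directly above Mir140, Mir298 had 8763 CPM in replicate 1 and 9448 in replicate 2. Directly below, Mir296 had 8051 CPM in replicate 1 and 9063 in replicate 2. Mir298 and Mir296 are imprinted neighbours near Gnas, and for both the order against Mir140 was turned round between the libraries, as it was for Mir181d, Mir487b and Mir125a (the last named after its values were seen). When counting intervals alone were compared, without the spread between pools, 4 loci were not told apart from Mir140.

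Other loci directly above were Mir130b, at 9005 CPM in replicate 1 and 10132 in replicate 2, and Mir411, at 9884 CPM in replicate 1 and 11091 in replicate 2; neither differed from Mir140 by this rule. Mir23a, with 9627 CPM in replicate 1 and 9352 in replicate 2, did exceed Mir140 by this rule (Mir140 minus Mir23a was -0.15 ± 0.05 on the log2 scale). The call was narrow, since in replicate 1 this difference was -0.111, against a ratio between pools of 0.109 for Mir140. Mir744, at rank 23, with 11769 CPM in replicate 1 and 12431 in replicate 2, exceeded it as well (Mir140 minus Mir744 was -0.50 ± 0.13). Below, Mir181d had 8380 CPM in replicate 1 and 8523 in replicate 2. The epithelial Mir429 followed with 8563 CPM in replicate 1 and 7915 in replicate 2, and the growth-associated Mir21a with 8627 CPM in replicate 1 and 7752 in replicate 2. Mir429 and Mir21a were, like Mir140, higher in replicate 1. Mir487b of the Dlk1-Dio3 region had 7919 CPM in replicate 1 and 8426 in replicate 2. None of these 4 differed from Mir140 by this rule. Mir140 was above Mir429 (by 0.06 ± 0.003 on the log2 scale) and Mir21a (0.07 ± 0.03) in both libraries, but by less than the ratio between pools. Its order against Mir181d and Mir487b was turned round between the libraries and is not resolved.

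**Figure D4:**
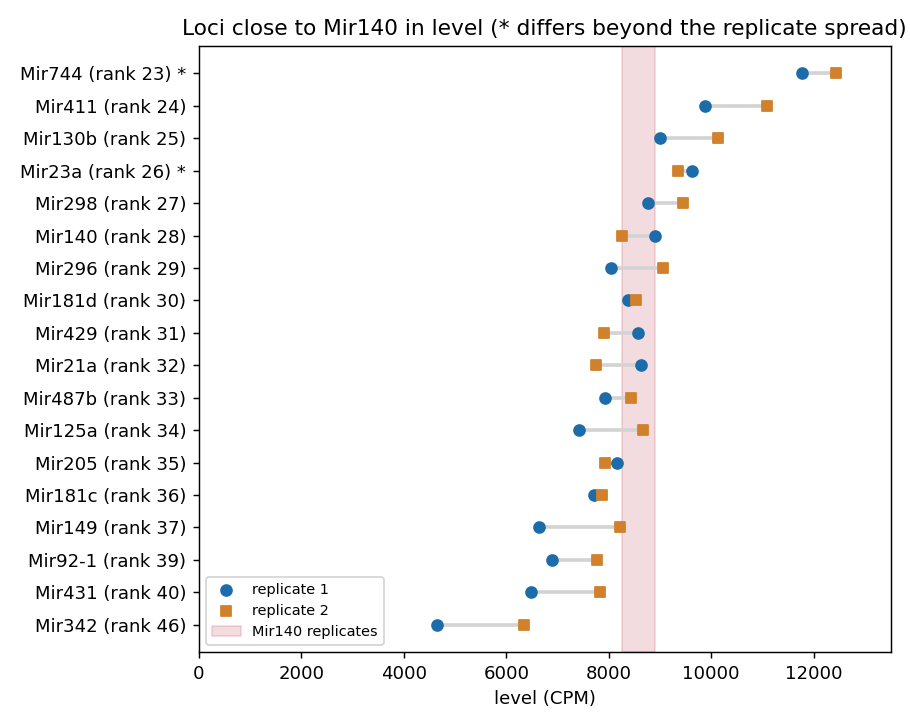
Level in CPM of Mir140, its nearest loci in rank and every other locus not told apart from it, with replicate 1 as circles and replicate 2 as squares; the red band spans the replicates of Mir140 (8262 to 8912 CPM). Most circles or squares of the loci ranked 27 to 35 fall in or beside the band, and loci with an asterisk (Mir744 and Mir23a) differ from Mir140 beyond the replicate spread.

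The pattern over both libraries was most like that of Mir429, by the Euclidean distance of log2(CPM + 1) over the 2 libraries (0.08). Mir181d (0.10), Mir21a (0.10), Mir205 (0.14) and Mir487b (0.17) came next. With 2 libraries this measure reflects little beyond the level itself.

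Other microRNAs reported in chondrocytes or cartilage were set against Mir140. Of 25 loci on this list, 24 were measured and 21 had at least 10 counts in both libraries, beside 17.8% of all loci, a comparison of listed, well-studied genes with a table that holds many predicted ones. The list took 2.78% of counts in replicate 1 and 2.76% in replicate 2, and its median level was 171 CPM. Mir140 was its most abundant measured member and supplied 32.0% of its counts in replicate 1 and 30.0% in replicate 2. The list is a choice of loci and not a full record, so this place and share depend on its members. Of the 21 detected members, Mir140 included, 12 were higher in replicate 1 (48.8% of all loci that averaged at least 10 counts were).

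Next in level was Mir127, an imprinted locus opposite Rtl1, with 4871 CPM in replicate 1 and 4846 in replicate 2. Mir140 exceeded it by a log2 difference of 0.82 ± 0.07. Mir483, in an intron of the growth factor gene Igf2, had 3051 CPM in replicate 1 and 3504 in replicate 2. Mir381 had 3127 CPM in replicate 1 and 2941 in replicate 2. Mir483 and Mir381 changed places between the libraries, and both lay below Mir127 and Mir140 in each. Mir181a-1 had 2005 CPM in replicate 1 and 2219 in replicate 2, and Mir337 had 1310 CPM in replicate 1 and 1304 in replicate 2. Mir181a-1 shares its 5p strand with a copy elsewhere, so its level may be incomplete.

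Mir455, which was singled out after its values were seen, likewise lies in an intron, that of Col27a1, a fibrillar collagen gene of cartilage, and is a known chondrocyte microRNA. Its mature strands do not have the seed of miR-140-3p, as the sequences show (seed in capitals, RefSeq, GRCm38.p6).
miR-455-5p: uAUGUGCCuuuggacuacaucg
miR-455-3p: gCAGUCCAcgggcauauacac
Mir455 had 1312 CPM in replicate 1 and 1261 in replicate 2. Mir140 was 6.79-fold above it in replicate 1 and 6.55-fold in replicate 2, a log2 difference of 2.74 ± 0.04. Mir675, processed from an exon of H19 and also known from cartilage, had 119 CPM in replicate 1 and 110 in replicate 2 (chosen after its values were seen). At the low end Mir365-2, Mir9-2 and Mir365-1 had 1 to 3 counts in each library (named after their values were seen), and no locus of the list was at 0. Mir365-1 and Mir365-2 share their 3p strand, and reads of it can be placed at several positions. Mir9-2 likewise has copies, Mir9-1 and Mir9-3, so its counts may be incomplete.

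**Figure D5:**
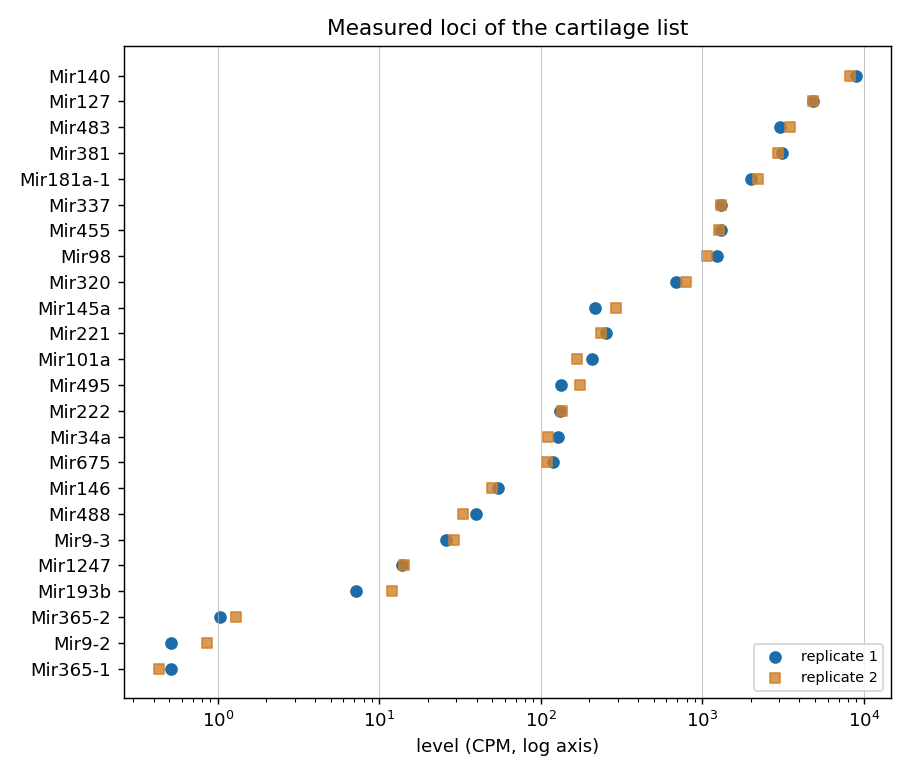
Level in CPM, on a log axis, of the 24 measured loci of the cartilage list, with replicate 1 as circles and replicate 2 as squares. Mir140 is at the top with 8912 CPM in replicate 1 and 8262 in replicate 2, followed by Mir127, and Mir365-1 is at the bottom with 1 count in each library.

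Among the 1894 loci with a known position Mir140 stood alone in the genome, and microRNA genes outside these loci were not searched. The nearest of these loci upstream was Mir7075, 455 kb away with 5 counts in replicate 1 and 8 in replicate 2. Downstream it was the predicted locus Gm23646, 289.6 kb away with 0 counts in both libraries. The nearest locus with at least 10 counts in both was Mir328, at a distance of 2.24 Mb. Of 93 loci on chromosome 8, 16 (17.2%) were detected, a share near the 17.8% of all loci. Mir23a, Mir140, Mir181d and Mir181c held 98.2% of the counts of the chromosome in replicate 1 and 97.8% in replicate 2. Mir140 alone gave 25.3% in replicate 1 and 23.8% in replicate 2.

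As an intronic microRNA it belongs to a class of 706 loci that lie in sense introns of protein-coding genes, of which 141 had at least 10 counts in both libraries, a share of like size to the 17.8% of all loci. That class took 45.2% of counts in replicate 1 and 44.5% in replicate 2. Mir140 was the 13th most abundant of it. The leading 5 were Mir335 in Mest, the endothelial Mir126a in Egfl7, Mir99b in Spaca6, Mir23b, and Mir30e in Nfyc, from 87317 ± 5140 CPM for Mir335 to 25858 ± 1212 CPM for Mir30e.

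The seed of miR-140-3p, shown above, was shared with miR-497b alone among 1738 listed mature sequences. Mir497b had 2 sense counts in replicate 1 and 2 in replicate 2, against 17305 and 19167 for Mir140. At this depth 2 counts give 1.03 CPM in replicate 1 and 0.862 in replicate 2, under the minimum of 10 counts used here for detection. By that minimum Mir140 was the only detected locus with this seed among the listed mature sequences, as far as hairpin counts can show, since the 2 strands of Mir140 are not counted apart.

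The match to this seed was also looked up in messenger RNAs, as sequence context and not as a measurement of these libraries. The 8-base match CTGTGGTA (the complement of bases 2 to 8 followed by A, on the sense strand) was in 697 of 20998 longest 3′ UTRs of protein-coding genes (3.32%), the 7-base match CTGTGGT in 3382 (16.1%) and the 6-base match TGTGGT in 7838 (37.3%). Each shorter match includes the longer ones. The seed of miR-140-5p, the other strand, was not searched in any gene, so these counts leave out its sites. Of 10 genes named as Mir140 targets in work on cartilage or palate (Pdgfra, Hdac4, Adamts5, Dnpep, Sp1, Smad3, Cxcl12, Bmp2, Igfbp5 and Rala), only Adamts5, which encodes an enzyme that cuts the cartilage proteoglycan aggrecan, held the 7-base match to miR-140-3p, at 2 places, and none held the 8-base match. The 6-base match was in 5 of the 10, with 5 in Adamts5, 4 in Cxcl12, 2 each in Hdac4 and Pdgfra and 1 in Rala, beside 37.3% of all UTRs. All 10 UTRs are longer than the median of all. The 3′ UTR of Adamts5 is long, 6437 bases against a median of 962. Among 758 UTRs of like length (4828 to 8583 bases), 52.8% held the 7-base match at least at 1 place and 17.2% at 2 or more. The printed stretch, which ends with the second match, lies at chr16:85862548-85862570 on the minus strand of GRCm38, from the GENCODE transcript, with the match in capitals.
Adamts5 site: atcatcgcagatacagCTGTGGT
A match of these letters does not show that a site is used, and the lack of one says nothing of sites for miR-140-5p. The 10 genes were not sorted by the strand they were named for. The known site of Pdgfra for miR-140-5p was not analysed here.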

How the data were processed

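Small-RNA libraries of total RNA from 2 pools of facial prominence tissue were analysed. The deposited values are raw counts for each microRNA gene on mm10 with the GENCODE M4 annotation, per the file headers of the accompanying text files. Which aligner and counter the authors used is not given in the sources used here. The tables hold counts irrespective of strand, sense and opposite, and the first equalled the sum of both at all 1973 loci. The sense counts were used. Lines that name no gene, left out of library sizes, held 59.2% of reads in replicate 1 and 65.8% in replicate 2, mostly unmapped (30.9% in replicate 1 and 38.6% in replicate 2) or placed at several positions (22.7% and 20.5%).

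Symbols, positions and hosts came from GENCODE M21 on the same assembly (1894 of 1973 identifiers matched without version; the 79 others held 1 count in replicate 1 and 3 in replicate 2). A locus was intronic when it touched no exon of a protein-coding transcript of its host. Sequences came from RefSeq (GRCm38.p6). The fold used RNAfold 2.7.2. CPM, exact (Clopper-Pearson) 95% intervals and the conditional interval of the ratio used Python 3.11.15, pandas 2.3.3, numpy 2.4.6, scipy 1.17.1 and matplotlib 3.10.9. Dispersion and library factors came from edgeR 4.0.16 and DESeq2 1.42.0 under R 4.3.3. The steps were tested on simulated data. No molecular identifiers are named, so intervals, and the 3 counts that a 0 allows, cover counting error alone.

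Named loci were Mir140, 5 ranked directly above and 5 below, the 5 most alike, the 6 most abundant of the cartilage list, seed sharers, the nearest and most abundant loci of chromosome 8 and the 5 leading intronic loci; the loci of the marker lists are named as their members. The gene, lists, tests and rule were chosen with earlier results of these data known. The alternatives concerned scaling, strand, count minimum, replicate and match length.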

Additional observations from a re-analysis of the deposited data

Results flagged for a closer look

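Opposite-strand counts, which the comparisons above do not use, exceeded the 3 counts that a 0 allows at Mir497b, the locus that shares the seed of miR-140-3p. There were 1546 in replicate 1 and 1885 in replicate 2, against 2 sense counts in each library. In GENCODE M21 the gene Mir497 (chr11:70234717-70234800, plus strand) lies opposite Mir497b (chr11:70234692-70234816, minus strand) and has no entry of its own in the count tables. Whether these reads come from Mir497 was not tested. Mir140 had 0 opposite-strand counts in both libraries.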

How the results depend on the processing

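The level of Mir140 was 8587 CPM, its rank 28 and its log2 ratio between pools 0.11. TMM, DESeq2 size factors, a total over detected loci and the column irrespective of strand kept the level within the replicate SD, the rank at 28 and the ratio within its counting interval. Leaving the most abundant locus out of the total gave 9410 CPM. Leaving out a replicate gave 8262 to 8912 CPM and ranks 27 to 32. With the summed mesenchyme list without Mir140 as denominator the ratio was 0.17, above its counting interval, and with 0.5 counts added it stayed at 0.11. Loci over 2-fold between the pools numbered 13 with a minimum average of 20 counts and 3 with 500, against 5. The 15 loci not told apart from Mir140 became 4 when overlap of counting intervals in either library was the rule. That rule ignores the spread between pools. With either replicate left out the number was 2, but the main rule needs both pools. These 2 are therefore not a result of the main rule on fewer data. The cartilage list's share of 2.77% was 2.69% irrespective of strand and 2.76% to 2.78% without a replicate. UTRs with a seed match numbered 697 for 8 bases, 3382 for 7 and 7838 for 6. No paired analysis was possible because both libraries belong to 1 group. With 2 libraries of 1 group no test was run, and counts of a hairpin do not separate its strands.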
